A study of Mus musculus with 8 samples.

Results

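The liver genes of cytochrome P450 families 1, 2 and 3 were followed in livers of mice given AAV2/9-SA or AAV2/9-Ctrl, with 4 libraries per group. Members were the genes whose symbol names a P450 of family 1, 2 or 3 (Cyp1, Cyp2 or Cyp3, then a subfamily letter and a number). The Cyp2c subfamily (15 symbols) and symbols marked as pseudogenes (15 symbols) were left out. Of 31910 genes in the count table, 46 symbols met that rule, and 27 of them, in 13 subfamilies, had 10 or more counts in at least 4 libraries. Of the other 19, 9 were listed at 0 in every library. Adeno-associated virus (AAV) vectors carry a gene into cells without replicating, and the series title names a protein of bacterial origin and steatohepatitis, an inflamed fatty liver. The 2 groups are called SA and Ctrl here, after the vector given. The series text describes a chow diet, 24 weeks on a diet high in fat, and 16 weeks on a diet high in fat and cholesterol with sugar in the water. The vector dose was 4.8e10 vector genomes per mouse into the tail vein after 7 weeks of feeding. The labels give for each library only the tissue, the vector, a replicate number and a code whose meaning is not stated. They do not give the strain, sex, age, genotype or diet behind each library, nor the promoter that drives the vector's gene.

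Cytochrome P450 enzymes are heme proteins of the endoplasmic reticulum that insert an oxygen atom into their substrate, with electrons passed on from NADPH by P450 oxidoreductase (Por) and cytochrome b5. Families 1 to 3 hold most of the enzymes that oxidize drugs and other foreign compounds in the liver, beside steroids, retinoids and fatty acids. Family 1 genes are induced through the aryl hydrocarbon receptor (AHR), Cyp2b genes above all through the constitutive androstane receptor (CAR, gene Nr1i3) and Cyp3a genes through the pregnane X receptor (PXR, gene Nr1i2). In mice several of these genes differ between the sexes under the control of growth hormone: Cyp2d9 is a classic gene of male liver, and Cyp2a4, Cyp2b9 and Cyp2b13 are typical of female liver.

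Several members have near-identical neighbours, and the results on Cyp2a and Cyp2b below turn on such pairs, so the 250 bases before their starts are shown (RefSeq, GRCm38.p6, read 5′ to 3′ in the direction of the gene). Capitals mark the bases at which the members of a pair differ. The window of Cyp2a4 is chr7:26306942-26307191, plus strand, and that of Cyp2a5 is chr7:26835089-26835338, plus strand. The second window starts 1 base later in the shared sequence, so that 249 bases align, and 98.4% of them are identical.
Cyp2a4: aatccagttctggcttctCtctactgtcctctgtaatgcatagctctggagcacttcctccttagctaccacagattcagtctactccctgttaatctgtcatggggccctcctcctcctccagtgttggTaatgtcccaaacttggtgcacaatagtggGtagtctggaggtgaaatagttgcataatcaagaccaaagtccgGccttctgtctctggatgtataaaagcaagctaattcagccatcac
Cyp2a5: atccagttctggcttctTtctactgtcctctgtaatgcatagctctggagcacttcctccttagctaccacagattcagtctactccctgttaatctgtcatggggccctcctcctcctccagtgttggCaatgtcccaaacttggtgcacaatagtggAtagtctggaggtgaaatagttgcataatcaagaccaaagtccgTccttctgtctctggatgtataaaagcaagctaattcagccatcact
The window of Cyp2b9 is chr7:26173159-26173408, plus strand, and that of Cyp2b13 is chr7:26061245-26061494, plus strand; these are 99.2% identical.
Cyp2b9: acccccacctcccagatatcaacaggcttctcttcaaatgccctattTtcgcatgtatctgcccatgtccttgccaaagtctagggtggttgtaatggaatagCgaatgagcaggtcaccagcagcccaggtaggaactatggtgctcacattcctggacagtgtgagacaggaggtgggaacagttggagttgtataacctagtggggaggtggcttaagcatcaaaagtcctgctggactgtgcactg
Cyp2b13: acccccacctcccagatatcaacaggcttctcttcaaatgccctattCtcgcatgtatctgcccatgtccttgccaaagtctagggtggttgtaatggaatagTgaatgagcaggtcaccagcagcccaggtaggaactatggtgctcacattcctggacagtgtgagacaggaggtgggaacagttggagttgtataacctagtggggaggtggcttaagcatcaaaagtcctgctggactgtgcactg
Cyp2a4 and Cyp2a5 differ at 4 of their 249 aligned bases, and Cyp2b9 and Cyp2b13 at 2 of 250. Their coding sequences are 98.4% identical in the first pair and 92.7% in the second (GENCODE M21).

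The windows of Cyp1a1 and Cyp1b1 are shown because both genes are textbook targets of AHR, which binds the core GCGTG of the dioxin response element. Capitals mark that core on either strand. The window of Cyp1a1 is chr9:57697363-57697612, plus strand, and that of Cyp1b1 is chr17:79715062-79715311, minus strand.
Cyp1a1: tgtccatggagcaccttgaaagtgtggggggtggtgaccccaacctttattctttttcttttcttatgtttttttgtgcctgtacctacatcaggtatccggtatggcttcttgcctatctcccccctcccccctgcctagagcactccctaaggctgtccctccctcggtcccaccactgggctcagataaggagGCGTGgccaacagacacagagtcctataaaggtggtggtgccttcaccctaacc
Cyp1b1: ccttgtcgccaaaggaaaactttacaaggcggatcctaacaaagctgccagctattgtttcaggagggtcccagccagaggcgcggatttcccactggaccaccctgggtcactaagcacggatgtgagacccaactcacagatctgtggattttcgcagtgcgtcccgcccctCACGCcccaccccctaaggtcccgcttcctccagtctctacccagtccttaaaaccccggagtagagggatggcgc
Of the 27 members, 23 had a promoter entry, and Cyp2d12, Cyp2d22, Cyp2g1 and Cyp2u1 had none. GCGTG was in the window of 4 of the 23 (Cyp1a1, Cyp1b1, Cyp2b10 and Cyp2j9) and in 28.2% of 32851 such windows of all genes. The AGGTCA hexamer of nuclear receptors was in 6 of the 23 (Cyp2b9, Cyp2f2, Cyp2j5, Cyp3a11, Cyp3a25 and Cyp3a59) and in 14% of all windows, and AGTTCA was in Cyp3a11 alone and in 11.8% of all windows. TTCNNNGAA, a site of the growth hormone effector STAT5, was in Cyp2j11 alone and in 7.02% of all. The DR1 element, a spaced repeat of AGGTCA that overlaps its matches, was in none of the 23 and in 0.0335% of all windows. TATAAA was in 11 of the 23 and in 12.4% of all windows. Both strands were searched for each motif, and a match describes letters only.

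Messenger RNA was measured by RNA sequencing of frozen liver. Total counts were 14114145 to 15922829 in 7 libraries and 28184001 in SA 4, and mitochondrial genes took 3.55% to 4.87% of counts in 7 libraries and 9.23% in Ctrl 4. The labels do not say that the 8 numbered samples are separate animals, so p-values measure only the spread between these samples, which may be technical. Levels below are TMM-normalized CPM (counts scaled to a common library size), listed in the order of libraries 1 to 4, where 3 counts are 0.108 CPM in SA 4 and up to 0.215 in Ctrl 4. All results are of bulk liver, in which fewer cells of a type and less RNA per cell cannot be told apart. Hepatocyte markers led the libraries, with a summed 68420.5 to 93508 CPM in Ctrl and 64449.7 to 85238 in SA.

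None of the 25 members that passed the filter on low counts differed between SA and Ctrl past an adjusted p of 0.05 in edgeR. Across all 12358 genes tested, 2 did (0.0162%). With DESeq2, 0 of the 27 kept members passed, against 60 of 17359 genes (0.346%). At an unadjusted p under 0.05, 3 of the 25 members passed in edgeR (12%), namely Cyp1a1, Cyp2a5 and Cyp2j9, all with the higher mean in SA, against 6.21% of all genes (767 of 12358). The 4 SA libraries overlapped the 4 Ctrl libraries for every one of the 25 members, while 3.12% of all genes (386) did not overlap. Members had positive fold changes in 14 cases and negative ones in 11, with a median log2 fold change (SA over Ctrl) of 0.04 and a range of -0.65 to 1.36. All genes tested had a median of -0.01, with 6014 positive and 6344 negative. Cyp2d12 and Cyp2g1 were kept by the count rule and were too low for the edgeR filter.

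**Figure D1:**
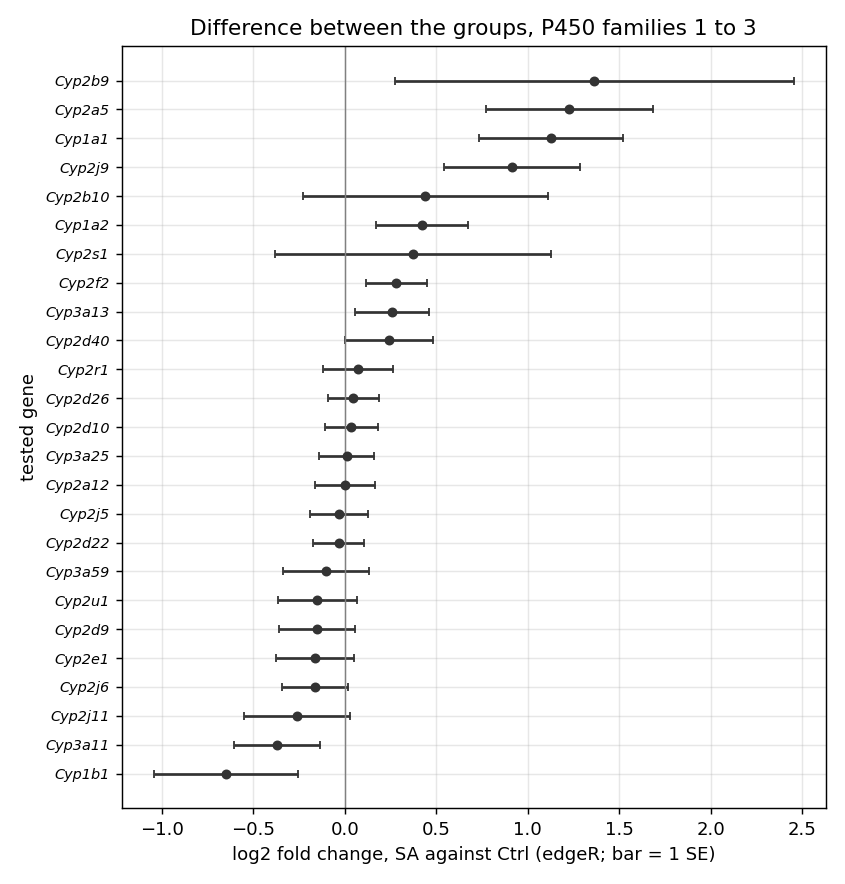
Log2 fold change of SA over Ctrl (horizontal axis) for each of the 25 tested members (vertical axis), with bars of 1 standard error from edgeR, 4 libraries per group. The values run from -0.65 for Cyp1b1 to 1.36 for Cyp2b9, and no member passed an adjusted p of 0.05.

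The summed level of the 27 members was 20380.5 ± 3120.1 CPM in Ctrl and 19418 ± 2945 in SA (mean ± SD, n = 4 each). By library the sum was 17326, 22709, 18080.4 and 23407 CPM in the Ctrl libraries and 16362, 20665, 17724 and 22919 CPM in the SA libraries. Both groups hold libraries near the lower and the upper end, and their ranges overlap almost fully. As a share of all counts the set took 1.77%, 2.2%, 1.95% and 2.14% in Ctrl and 1.65%, 2.07%, 1.82% and 2.25% in SA. Cyp2e1 alone gave 42.4% to 54.0% of the set's counts in each library. By subfamily, the sum over both groups was made of Cyp2e (47.2%), Cyp3a (20.3%), Cyp2d (16.9%), Cyp2a (7.27%), Cyp2j (3.81%), Cyp2f (2.23%) and Cyp1a (2.1%), and Cyp2b gave 0.0477%. Per kilobase of transcript, as the mean of all 8 libraries, Cyp2e1 stood at 5121 CPM per kb, Cyp3a11 at 1254, Cyp2d9 at 699, Cyp2a5 at 413 and Cyp1a2 at 214. Cyp2s1 was the lowest of the tested members at 0.242.

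**Figure D2:**
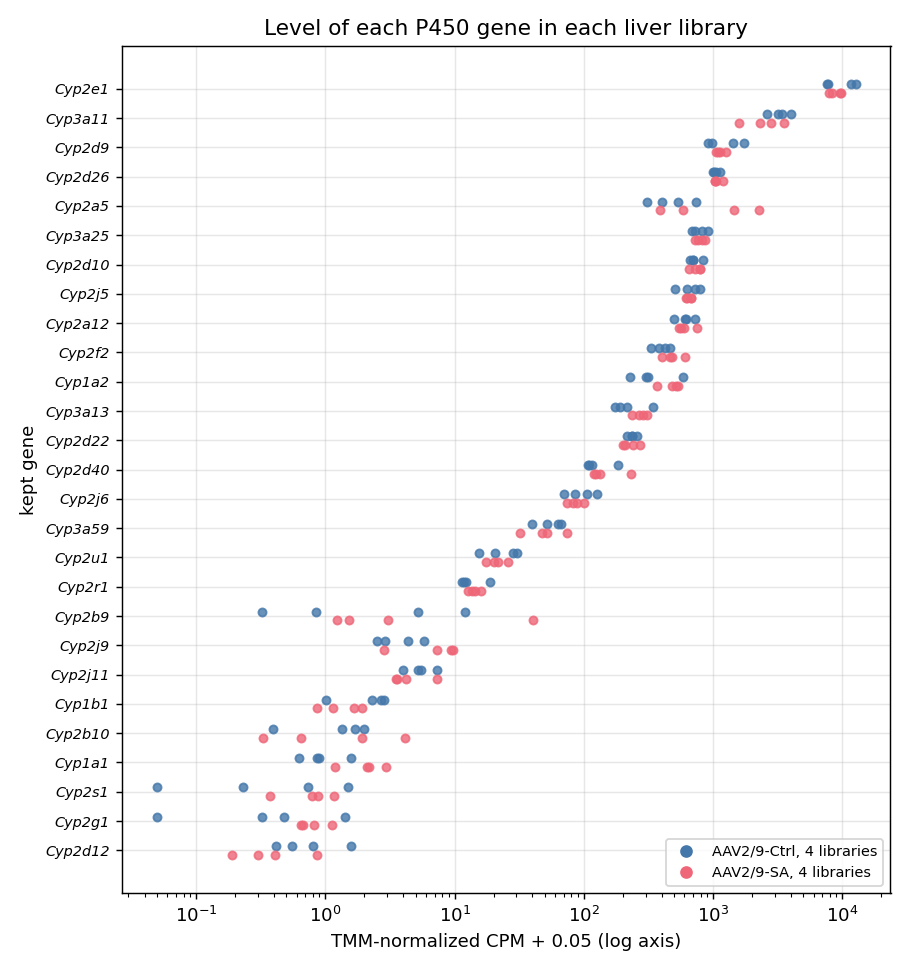
TMM-normalized CPM + 0.05 (log axis) of each kept member, one point per library, with Ctrl in blue and SA in red. Cyp2e1 and Cyp3a11 are the highest genes, and the points of both groups overlap for each of the 25 tested members.

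In family 1, Cyp1a2 was the abundant member, Cyp1a1 was near the bottom of the set, and neither passed the adjusted threshold. Cyp1a1, which oxidizes polycyclic aromatic hydrocarbons and is nearly silent in uninduced liver, was at 0.819, 1.52, 0.845 and 0.574 CPM in the Ctrl libraries and 1.14, 2.88, 2.14 and 2.06 CPM in the SA libraries. Of the 4 SA libraries, 3 lie above every Ctrl library and SA 1 lies among them. The means were 0.939 ± 0.404 CPM in Ctrl and 2.06 ± 0.712 in SA (mean ± SD, n = 4 each), with log2 fold change 1.13 ± 0.40 (SE), edgeR adjusted p = 0.601. These values rest on 8 to 22 counts per Ctrl library and 17 to 57 per SA library. Cyp1a2, the caffeine-metabolizing enzyme of hepatocytes around the central vein, was at 226, 582, 316 and 299.7 CPM in the Ctrl libraries and 370.1, 516, 484 and 534 CPM in the SA libraries. Ctrl 2 was the highest of the 8 and Ctrl 1 the lowest (log2 fold change 0.42 ± 0.25 (SE), edgeR adjusted p = 0.942). The log2 fold change was 0.24 without Ctrl 1 and 0.77 without Ctrl 2. Summed Cyp1a was 357 ± 156 CPM in Ctrl and 478 ± 74.3 in SA, a log2 ratio of 0.42. The coding sequences of Cyp1a1 and Cyp1a2 are 76.1% identical.

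Cyp1b1, a P450 of estrogen and retinoid metabolism expressed mainly outside hepatocytes, was at 2.80, 0.965, 2.23 and 2.66 CPM in the Ctrl libraries and 0.805, 1.63, 1.11 and 1.88 CPM in the SA libraries. Ctrl 1, 3 and 4 were above all SA libraries, and Ctrl 2 lay among them. The difference was not past the threshold (log2 fold change -0.65 ± 0.39 (SE), edgeR adjusted p = 0.944). Markers of stellate cells, the pericytes of the liver sinusoid, were read beside it, and all 7 tested of 8 had negative fold changes (median -0.46). Their summed level was 680.3, 379, 458 and 636 CPM in Ctrl 1 to 4 and 316 to 385 in SA. Col1a1 and Dcn led these markers, with log2 fold changes of -2.04 ± 0.51 and -0.67 ± 0.20 (SE, adjusted p in edgeR = 0.367 and 0.485), and Lrat is listed at 0 throughout. In Ctrl 2 both Cyp1b1 and the stellate sum were the lowest of the Ctrl group. Within SA they did not run together: SA 4 had the highest Cyp1b1, at 1.88 CPM, and the lowest stellate sum, at 316 CPM. The part of stellate cells in the Cyp1b1 values was not tested.

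Within Cyp2a the 2 kept genes differed in how much they varied between libraries. Cyp2a5, which hydroxylates coumarin and nicotine, was at 403, 741, 536 and 311 CPM in the Ctrl libraries and 391, 1438, 586 and 2248 CPM in the SA libraries. SA 2 and SA 4 were above every Ctrl library, and SA 1 and SA 3 lay within the Ctrl range. The means were 498 ± 187 CPM in Ctrl and 1166 ± 853 in SA (mean ± SD, n = 4 each), with log2 fold change 1.23 ± 0.46 (SE), edgeR adjusted p = 0.662. Leaving out SA 4 gave a log2 fold change of 0.68. Cyp2a12, which acts on steroids, stayed close to one level, with 502 to 725 CPM in Ctrl, 546 to 751 in SA and a log2 fold change of -0.002 ± 0.16 (SE). Summed Cyp2a was 1112 ± 240.3 CPM in Ctrl and 1779 ± 939 in SA.

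Cyp2a4, a steroid 15-alpha hydroxylase and the near copy of Cyp2a5 printed above, missed the count rule with 10 counts in 3 libraries; it is named after its values were seen. It had 26, 2, 7 and 3 counts in the Ctrl libraries and 4, 212, 4 and 2690 counts in the SA libraries. In CPM, SA 4 stood at 97.3 and SA 2 at 13.3, and the other 6 libraries at 0.138 to 1.77. SA 4 and SA 2 were thus the highest libraries for both genes of the pair. Cyp2a4 made up 4.15% of the summed counts of Cyp2a4 and Cyp2a5 in SA 4, 0.914% in SA 2, 0.438% in Ctrl 1 and 0.0186% to 0.0788% in the other 5. Of the 50-base windows of the Cyp2a5 coding sequence, 38.2% occur unchanged in another P450 gene of families 1 to 3, so counts of both genes are uncertain where reads were split.

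Cyp2b genes were low and their group means turned on single libraries. Cyp2b9 was at 11.9, 0.276, 5.13 and 0.790 CPM in the Ctrl libraries and 1.48, 3.003, 1.18 and 40.1 CPM in the SA libraries. SA 4 was the highest of the 8 and Ctrl 1 the next, and the other 3 SA libraries lay within the Ctrl range. The log2 fold change was 1.36 ± 1.09 (SE, adjusted p in edgeR = 0.989), -1.26 without SA 4 and 2.47 without Ctrl 1. Cyp2b10, the textbook target of CAR, ranged over 0.345 to 1.93 CPM in Ctrl and 0.277 to 4.05 in SA, again with SA 4 the highest. Its log2 fold change was 0.44 ± 0.67 (SE), and -0.49 without SA 4. Cyp2b13, outside the rule and named after its values were seen, had 49 counts in SA 4, 9 in Ctrl 1 and 0 to 2 in each of the other 6. SA 4 and Ctrl 1 were therefore the highest libraries for both Cyp2b9 and Cyp2b13, and 12.3% of the 50-base coding windows of Cyp2b9 occur in another P450 gene of families 1 to 3. Summed Cyp2b was 5.84 ± 5.85 CPM in Ctrl and 13.1 ± 20.7 in SA, and its log2 ratio of 1.17 became -1.06 without SA 4 and 2.01 without Ctrl 1.

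**Figure D3:**
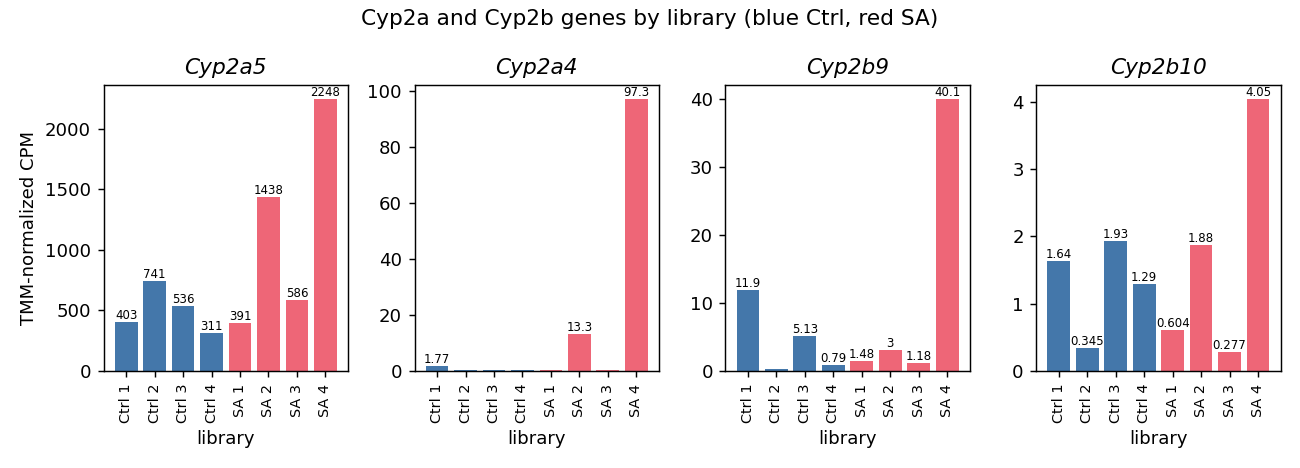
TMM-normalized CPM (vertical axis, linear from 0) of Cyp2a5, Cyp2a4, Cyp2b9 and Cyp2b10 in each library (horizontal axis), with Ctrl in blue and SA in red. SA 4 is the highest bar for each of the 4 genes, and SA 2 is the next for Cyp2a5 and Cyp2a4.

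Cyp2d, which oxidizes many basic drugs and steroids, summed to 3394 ± 550.1 CPM in Ctrl and 3338 ± 141 in SA, a log2 ratio of -0.02. Its SD was smaller in SA than in Ctrl. Cyp2d9, the male testosterone 16-alpha hydroxylase and the most abundant of the 6 kept Cyp2d genes, was at 920.4, 1734, 974 and 1412 CPM in the Ctrl libraries and 1264, 1126, 1049 and 1092 CPM in the SA libraries. Ctrl 2 was the highest and Ctrl 1 the lowest, and all SA libraries lay between them (log2 fold change -0.15 ± 0.21 (SE), edgeR adjusted p = 0.996). Without Ctrl 2 its log2 fold change was 0.04. Cyp2d40 was at 108, 184, 109 and 116 CPM in the Ctrl libraries and 233, 120.4, 132 and 125 CPM in the SA libraries. Ctrl 2 and SA 1 stood above the other 6 libraries, which lay between 108 and 132 CPM. The log2 fold change of 0.24 ± 0.24 (SE, adjusted p in edgeR = 0.996) was -0.04 without SA 1. Cyp2d10, Cyp2d22 and Cyp2d26 had log2 fold changes of 0.04 ± 0.15, -0.03 ± 0.14 and 0.05 ± 0.14 (SE). Cyp2d12 was near the detection limit, with 2 to 22 counts per library. Cyp2d11, just outside the count rule with 3 libraries at 10 or more, had 0 to 13 counts per library. Cyp2d9 and Cyp2d10 share 30.8% and 40.4% of their 50-base coding windows with other P450 genes of families 1 to 3.

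Cyp2e1, the pericentral enzyme that oxidizes ethanol, acetone and paracetamol, was the most abundant member. It was at 7620.2, 11706, 7679.6 and 12645 CPM in the Ctrl libraries and 7812, 9525, 8382 and 9719 CPM in the SA libraries. Ctrl 2 and Ctrl 4 were the highest libraries and Ctrl 1 and Ctrl 3 the lowest, so that all SA libraries lay inside the Ctrl range. The means were 9913 ± 2641 CPM in Ctrl and 8859 ± 914 in SA (mean ± SD, n = 4 each), with log2 fold change -0.16 ± 0.21 (SE), edgeR adjusted p = 0.996. Cyp2f2, a periportal enzyme known for oxidizing naphthalene, was at 465, 424, 382 and 331 CPM in the Ctrl libraries and 404, 478, 461 and 603 CPM in the SA libraries. SA 2 and SA 4 were above every Ctrl library, SA 3 was just under Ctrl 1, and SA 1 lay within the Ctrl range (log2 fold change 0.28 ± 0.17 (SE), edgeR adjusted p = 0.939). Cyp2g1, an enzyme known from olfactory mucosa, had 0 to 30 counts per library and was kept through 1 Ctrl and 3 SA libraries. It was at 0.273, 1.38, 0 and 0.431 CPM in the Ctrl libraries and 0.604, 0.626, 0.761 and 1.08 CPM in the SA libraries, and the 0 counts of Ctrl 3 allow up to 0.181 CPM. All SA libraries lay within the Ctrl range.

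Cyp2j enzymes turn arachidonic acid into epoxides. Cyp2j5, the most abundant in these livers, was at 631, 718, 511 and 792 CPM in the Ctrl libraries and 623, 676, 613 and 680.0 CPM in the SA libraries, with a log2 fold change of -0.03 ± 0.16 (SE). Cyp2j9 was far lower, at 2.87, 2.48, 4.28 and 5.74 CPM in the Ctrl libraries and 2.82, 9.26, 9.61 and 7.27 CPM in the SA libraries. SA 2, SA 3 and SA 4 were above every Ctrl library and SA 1 was close to the lowest Ctrl library. The means were 3.84 ± 1.48 CPM in Ctrl and 7.24 ± 3.12 in SA (mean ± SD, n = 4 each), with log2 fold change 0.91 ± 0.37 (SE), edgeR adjusted p = 0.729. Cyp2j6 and Cyp2j11 had log2 fold changes of -0.17 ± 0.18 and -0.26 ± 0.29 (SE). Cyp2j9 is a small part of the subfamily, and summed Cyp2j had a log2 ratio of -0.04.

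Cyp2r1, a vitamin D 25-hydroxylase, was at 11.4, 11.7, 12.1 and 18.6 CPM in the Ctrl libraries and 14.2, 16.1, 13.7 and 12.7 CPM in the SA libraries, with Ctrl 4 above the rest (log2 fold change 0.07 ± 0.19, SE). Cyp2u1, a fatty acid hydroxylase, was at 20.6, 28.1, 15.3 and 30.4 CPM in the Ctrl libraries and 21.7, 19.96, 25.9 and 17.5 CPM in the SA libraries, and its SA libraries lay within the Ctrl range (log2 fold change -0.15 ± 0.21, SE). Cyp2s1, a P450 of epithelia outside the liver, was at 0.682, 0, 0.181 and 1.44 CPM in the Ctrl libraries and 0.738, 1.13, 0.830 and 0.325 CPM in the SA libraries, and the 0 counts of Ctrl 2 allow up to 0.207 CPM. Its SA libraries lay inside the Ctrl range.

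Cyp3a summed to 4389 ± 666 CPM in Ctrl and 3679 ± 879.5 in SA, with most of it in Cyp3a11, the main mouse drug-metabolizing P450 of this subfamily and the textbook target of PXR. Cyp3a11 was at 3188, 2609, 4038 and 3435 CPM in the Ctrl libraries and 1599, 2808, 2308 and 3529 CPM in the SA libraries. SA 1 and SA 3 were below every Ctrl library, SA 2 and SA 4 lay within the Ctrl range, and Ctrl 3 was the highest of the 8. The means were 3318 ± 592 CPM in Ctrl and 2561 ± 814 in SA (mean ± SD, n = 4 each), with log2 fold change -0.37 ± 0.24 (SE), edgeR adjusted p = 0.955. Its share of the summed Cyp3a counts was 72.3% to 80.3% in Ctrl and 59.9% to 74.5% in SA. Cyp3a13 was at 191, 173, 214 and 340.5 CPM in the Ctrl libraries and 265, 237, 289 and 308 CPM in the SA libraries. Here Ctrl 4 was the highest library and the other Ctrl libraries were below every SA library (log2 fold change 0.26 ± 0.20 (SE), edgeR adjusted p = 0.989). Cyp3a25 and Cyp3a59, whose coding sequences are 97.5% identical, had log2 fold changes of 0.01 ± 0.15 and -0.10 ± 0.23 (SE). Cyp3a41a and Cyp3a41b, a pair of nearly identical genes, are listed at 0 in all libraries. Since genes such as Oat and Ugt1a1 are listed at 0 as well, such entries carry no level.

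Among 20 tested genes for xenobiotic receptors and their partners, 17 had positive fold changes and 3 negative ones (median log2 0.14), and 2 (Nr1i3 and Hnf4a) had an unadjusted p under 0.05. None passed the adjusted threshold in edgeR, and 1, Nr1i3, did in DESeq2 (adjusted p = 0.0494), against 0.346% of all genes. Nr1i3 (CAR) was at 8.32, 12.9, 12.3 and 8.33 CPM in the Ctrl libraries and 15.02, 20.5, 19.02 and 19.2 CPM in the SA libraries. Hnf4a, a hepatocyte transcription factor that binds many P450 promoters, was at 412, 399, 527 and 454 CPM in the Ctrl libraries and 528, 812, 674 and 720.1 CPM in the SA libraries. All 4 SA libraries were above all 4 Ctrl libraries for both genes, although Hnf4a in Ctrl 3 and SA 1 were nearly equal. Of all genes, 3.12% did not overlap. For this list and those below, the share of all genes at an unadjusted p under 0.05 in edgeR was 6.21%. Nr1i3 and Hnf4a had log2 fold changes of 0.82 ± 0.19 and 0.61 ± 0.17 (SE, adjusted p in edgeR = 0.342 and 0.425). Next in order of p were Nfe2l2 (NRF2) at -0.33 ± 0.16 and Rxra, the partner of CAR and PXR, at 0.32 ± 0.15. Nr1i2 (PXR) had 0.26 ± 0.16 and Ahr 0.07 ± 0.30, printed as the receptors of Cyp3a and Cyp1 genes. Cyp2b10, the target of CAR, overlapped Ctrl, at or under 1.88 CPM in 3 of 4 SA libraries and highest in SA 4 at 4.05. Whether the levels of Nr1i3 and Cyp2b10 are linked was not tested.

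Among 17 genes of electron transfer and heme synthesis, 9 had positive and 8 negative fold changes (median log2 0.07), with 0 past an adjusted and 0 past an unadjusted p of 0.05 in edgeR and 0 in DESeq2. Por, which feeds electrons to all members, was at 619, 774, 814 and 575 CPM in the Ctrl libraries and 621, 859, 741 and 1204 CPM in the SA libraries. SA 4 was its highest library and the rest of SA lay within or close to the Ctrl range (log2 fold change 0.30 ± 0.21, SE). Cpox and Fech, enzymes of heme synthesis, had 0.30 ± 0.15 and 0.15 ± 0.13, and Blvrb, a biliverdin reductase, had 0.33 ± 0.25.

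Other targets of the same receptors are listed for comparison. Of 5 tested AHR targets of 10 listed, 2 had positive and 3 negative fold changes (median log2 -0.01), and of 16 tested targets of CAR and PXR, 12 had positive and 4 negative ones (median log2 0.11), with 0 past the threshold in either list in edgeR or DESeq2 and 1 in each (Gstm1 and Gsta2) at an unadjusted p under 0.05 in edgeR. Gstm1, a glutathione transferase, was at 1691, 1142, 1821 and 968 CPM in the Ctrl libraries and 1364, 2889, 1571 and 4135 CPM in the SA libraries (log2 fold change 0.82 ± 0.33, SE). Gsta2, of the same enzyme class, was at 19.6, 10.8, 22.6 and 10.98 CPM in the Ctrl libraries and 8.32, 47.5, 17.8 and 66.2 CPM in the SA libraries (log2 fold change 1.13 ± 0.50, SE). SA 2 and SA 4 were the highest libraries for both, as for Cyp2a5 and Cyp2a4. The same libraries were the highest for genes of the other lists below, such as Cyp26a1, Acot3 and Etnppl, and a shared cause was not tested. The AHR targets Pdk4 and Nqo1 had -0.29 ± 0.23 and 0.42 ± 0.43. Ces2a, a carboxylesterase, had 0.37 ± 0.18 and the bile transporter gene Abcc2 0.27 ± 0.19.

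P450 genes of other families gave 16 positive and 9 negative fold changes among 25 tested (median log2 0.04). None passed the threshold in edgeR or DESeq2, and 3 had an unadjusted p under 0.05 in edgeR. The 4 with the smallest p were Cyp4a32 at 0.48 ± 0.16, Cyp4a31 at 0.95 ± 0.37, the retinoic acid hydroxylase gene Cyp26a1 at 0.84 ± 0.39 and Cyp4a14 at 1.09 ± 0.52 (log2 fold change ± SE). The other Cyp4a genes, fatty acid hydroxylases like these, had 0.28 ± 0.22 for Cyp4a10, 0.16 ± 0.27 for Cyp4a12a and -0.16 ± 0.32 for Cyp4a12b. Groups did not overlap for 1 of the 25 (against 3.12% of all genes), Cyp4a32, at 37.3, 49.3, 42.4 and 48.9 CPM in Ctrl and 59.8, 54.4, 79.9 and 53.4 in SA.

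Since several members are sex-biased, genes known to be higher in male or in female mouse liver were read beside them. Kdm5d, Uty, Eif2s3y and Ddx3y, genes of the Y chromosome, had 13.6 to 152 CPM over the 8 libraries, with 1 positive and 3 negative fold changes. Every library thus held RNA of male mice, Ctrl 1 and SA 4 included. Xist, the X-inactivation transcript of females, is listed at 0 in all 8, an entry that carries no level, as with Oat and Ugt1a1. The 18 tested male-liver genes, all outside the set, had 11 positive and 7 negative fold changes (median log2 0.14), and 0 passed the threshold in edgeR, 2 at an unadjusted p under 0.05. In DESeq2 1 passed, Cspg5 (adjusted p = 0.00486), against 0.346% of all genes. Their summed level was 5893, 17045, 8069 and 11295 CPM in the Ctrl libraries and 14744, 9316, 16046 and 6391 CPM in the SA libraries, so that Ctrl 1 and SA 4 were the lowest. Cspg5 and Gstp1 did not overlap between the groups, 2 of 18 against 3.12% of all genes. Their log2 fold changes were 2.38 ± 0.50 and 0.68 ± 0.18 (SE, adjusted p in edgeR = 0.243 and 0.408). Susd4 and Serpina1e had 0.73 ± 0.39 and 1.29 ± 0.76. The 11 tested female-liver genes had 4 positive and 7 negative fold changes (median log2 -0.12), with 0 past the threshold in edgeR or DESeq2 and 1 at an unadjusted p under 0.05. Their sum was 81.2 to 122 CPM in Ctrl and 85.8 to 163 in SA, highest in SA 4. Acot4, Slc22a26, Acot3 and Prom1 had the smallest p of them, with 0.72 ± 0.31, 1.42 ± 0.70, 0.86 ± 0.46 and -0.85 ± 0.50.

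The level of each of the 27 members was then set against the mean log2(CPM + 0.5) of the 18 male-liver genes over the 8 libraries, a step chosen after the values were seen. Of the 27 relations, 0 passed an adjusted p of 0.05 (two-sided, Benjamini-Hochberg over the 27). The 4 with the smallest p of r and, as the textbook male gene, Cyp2d9 are given. Cyp2b9 had r = -0.87 (exact permutation p = 0.00516, adjusted 0.129) and rho = -0.91 (exact permutation p = 0.00456, adjusted 0.0977), and r = -0.77 without Ctrl 1 and SA 4, the pair of libraries farthest from the median of the male-liver mean. Cyp3a59 had r = -0.82 (exact permutation p = 0.0142, adjusted 0.129) and rho = -0.88 (exact permutation p = 0.00724, adjusted 0.0977), and r = -0.70 without Ctrl 1 and SA 4. Cyp2b10 had r = -0.81 (exact permutation p = 0.0167, adjusted 0.129) and rho = -0.83 (exact permutation p = 0.0154, adjusted 0.139), and r = -0.94 without Ctrl 1 and SA 4. Cyp1b1 had r = -0.80 (exact permutation p = 0.0191, adjusted 0.129) and rho = -0.76 (exact permutation p = 0.0368, adjusted 0.199), and r = -0.86 without Ctrl 1 and SA 4. Cyp2d9 had r = 0.65 (exact permutation p = 0.0786, adjusted 0.303) and rho = 0.69 (exact permutation p = 0.0694, adjusted 0.234), and r = 0.52 without Ctrl 1 and SA 4. Cyp2d40 and Cyp3a11 had r = 0.68 (exact permutation p = 0.057) and -0.67 (exact permutation p = 0.0685), of a size like that of Cyp2d9. After the mean of each group was subtracted from both measures, r was -0.96 (exact permutation p = 0.00174, adjusted 0.047) for Cyp2b9, -0.81 (exact permutation p = 0.0295, adjusted 0.234) for Cyp3a59 and -0.84 (exact permutation p = 0.0156, adjusted 0.211) for Cyp2b10. It was -0.82 (exact permutation p = 0.0347, adjusted 0.234) for Cyp1b1 and 0.73 (exact permutation p = 0.0451, adjusted 0.244) for Cyp2d9. Libraries were permuted within groups, where the p of Cyp2b9 is the smallest that the 576 orders can give. In this version 1 of the 27 relations passed adjustment. The adjustment covers neither the choice among r, rho and the centred r nor the earlier look at the values, so the relation is a description only.

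**Figure D4:**
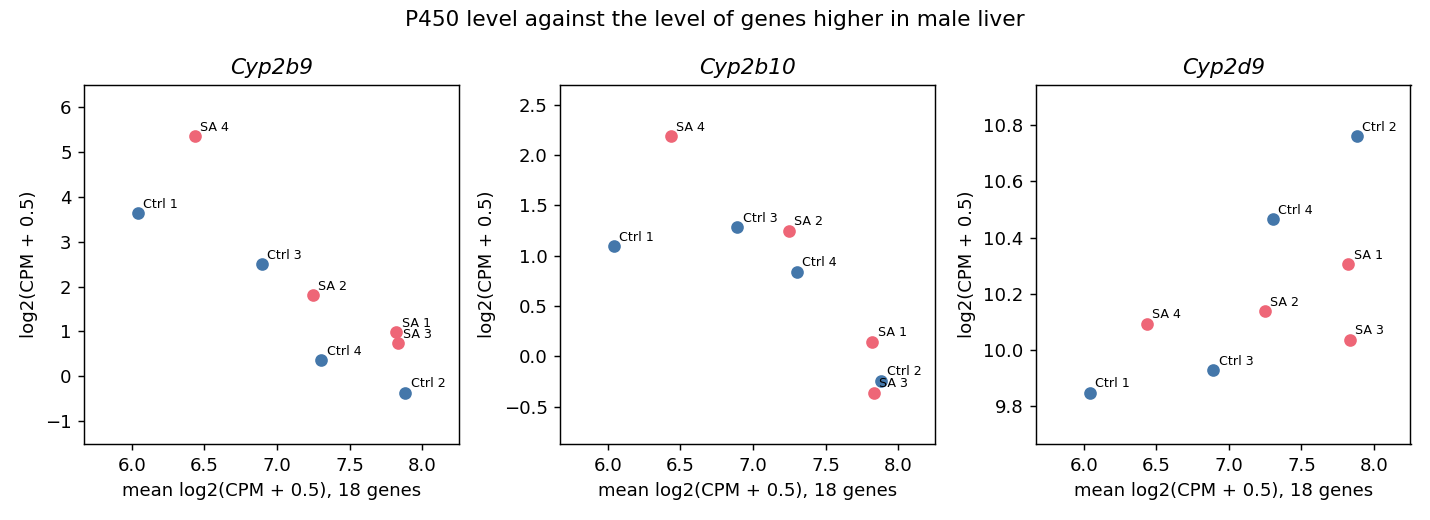
Log2(CPM + 0.5) of Cyp2b9, Cyp2b10 and Cyp2d9 (vertical axes) against the mean log2(CPM + 0.5) of 18 male-liver genes (horizontal axis), one point per library, Ctrl in blue and SA in red. Ctrl 1 and SA 4 have the lowest male-liver means, and before centring by group the 3 relations did not pass adjustment over the 27 computed.

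Cyp1a2 and Cyp2e1 are pericentral and Cyp2f2 is periportal, so zonal genes outside the set were counted as well. The 16 tested pericentral genes had 8 positive and 8 negative fold changes (median log2 -0.01), and the 17 periportal ones 13 positive and 4 negative (median log2 0.10). None of either list passed the threshold in edgeR or DESeq2, and 2 of each had an unadjusted p under 0.05 in edgeR. Glul, the glutamine synthetase of the innermost pericentral cells, was at 1406, 2164, 1166 and 1116 CPM in the Ctrl libraries and 1276, 1237, 1059 and 1194 CPM in the SA libraries (log2 fold change -0.30 ± 0.21, SE). Ctrl 2 was its highest library, as it was for Cyp1a2. Cyp2e1 was instead highest in Ctrl 4, where Glul was the lowest of the Ctrl group. Rnase4, Mup17 and Lect2 had 0.44 ± 0.18, 1.13 ± 0.49 and -0.31 ± 0.22, and the periportal genes Aldh1b1, Etnppl, Arg1 and Hal had -0.84 ± 0.27, 0.79 ± 0.35, 0.28 ± 0.16 and 0.28 ± 0.17.

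Markers of other liver cells were read in the same fit, and none passed the adjusted threshold in edgeR. In DESeq2 1 passed, the T cell gene Cd8a (adjusted p = 0.00394), against 0.346% of all genes. Cd8a was at 0.121 to 0.341 CPM in Ctrl, where 3 counts are 0.181 to 0.215 CPM, and at 1.19 to 1.87 in SA. The T cell gene Trbc2 had a log2 fold change of 0.14 ± 0.64 (SE). Cd3e, too low for the edgeR filter, was at 0 to 0.784 CPM in Ctrl and 0 to 0.398 in SA. At an unadjusted p under 0.05 in edgeR there were 3 stellate, 3 bile duct, 1 endothelial, 1 Kupffer cell, 1 T and B cell and 0 hepatocyte markers. Across all genes the share was 6.21%, and each list held few tested markers. Kupffer cell (macrophage) markers had 8 positive and 0 negative fold changes among 8 tested, with sums of 316 to 653 CPM in Ctrl and 546 to 769.8 in SA. Endothelial markers had 3 positive and 4 negative fold changes among 7 tested, with sums of 253 to 277 CPM in Ctrl and 191 to 299 in SA. Bile duct markers had 1 positive and 4 negative fold changes among 5 tested, with sums of 35.1 to 134 CPM in Ctrl and 37.8 to 66.2 in SA. T and B cell markers had 5 positive and 1 negative fold changes among 6 tested, with sums of 18.2 to 32.1 CPM in Ctrl and 17.2 to 44.00 in SA, and Ms4a1 is listed at 0. Hepatocyte markers had 5 positive and 2 negative fold changes among 7 tested, with sums of 68420.5 to 93508 CPM in Ctrl and 64449.7 to 85238 in SA. The part of cell composition in the P450 values was not tested.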

How the data were processed

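RNAiso Plus was used to extract RNA of frozen mouse liver and a NEBNext Ultra kit to make libraries, per the labels' protocols, which do not call it strand-specific, so antisense reads may be included. The table deposited by the authors holds whole-number read counts per gene, without normalization. A further table of 9265 rows, deposited by the authors, holds FPKM values and served only as an alternative. FastQC 0.19.7, HISAT2 and StringTie 2.2.1 are named, per the submitters' processing notes, as are the builds GRCm39 and mm10. The counting program and build are not given in the sources used here.

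Groups came from the labels' vector names. Total counts were 14114145 to 28184001 per library. Counts were tested over 12358 genes with edgeR 4.0.16 in R 4.3.3 (quasi-likelihood F test, TMM factors, filterByExpr, no block), with Benjamini-Hochberg adjustment over all of them. Standard errors were obtained by dividing each log2 fold change by the root of its F value, and the biological coefficient of variation was 22.6%. The fit was tested on simulated counts. Subfamily sums are descriptions without a test. Per-library values are given for the most counted member of each subfamily, the 10 members with the smallest p, and any whose groups do not overlap (none did). From each other list up to 4 genes with the smallest p are named, and some list genes are not reported here. The members and lists were chosen with earlier results of these data known. Coding sequences and lengths came from GENCODE M21.

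Alternatives were DESeq2 1.42.0, RLE factors, no filter on low counts, a replicate block, limma 3.58.1 on log2(FPKM + 1) for genes of at least 0.5 FPKM in at least 4 libraries, the omission of each library and, for sums, CPM without a factor. The correlations with male-liver genes, also centred by group, were added after seeing the data. No 2 replicates agreed within sampling noise (lowest chi-square per degree of freedom 33.2).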

Additional observations from a re-analysis of the deposited data

Results flagged for a closer look

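In groups of 4 libraries, a library was singled out where its gap to the nearest other library was, as a share of the group's range, above the critical value of Dixon's test at 95%. Of 68 groups examined, 6 had such a library, and chance gives about 1 in 20. SA 4 stood apart for Cyp2b9 at 40.1 CPM, with the other SA libraries at 1.18 to 3.0, and for summed Cyp2b at 44.1 CPM, with the others at 1.45 to 4.88. SA 4 also stood apart for Cyp2d26 at 1200 CPM, against 1030 to 1040. SA 1 stood apart for Cyp2d40 at 233 CPM, against 120 to 132. In Ctrl, Cyp2d40 was at 184 CPM in Ctrl 2, against 108 to 116. Cyp2r1 was at 18.6 CPM in Ctrl 4, against 11.4 to 12.1. SA 4 is also the most deeply sequenced library, and the part of depth in these values was not tested.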

How the results depend on the processing

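No member passed the threshold under any of the alternatives run, in either direction: edgeR with RLE factors, without the low-count filter or with the replicate block, DESeq2, limma on FPKM, and each omission of 1 library. Of the 25 tested members, 12 kept the sign of their fold change under every alternative, and of 318 alternative values of single genes 27 had the opposite sign, none past the threshold. Across all genes the 1 higher and 1 lower in SA became 3 and 5 without the filter and 23 and 37 with DESeq2. With FPKM they became 0 and 3. The replicate block gave 5 lower. Leaving out 1 library gave 0 (without Ctrl 4) to 13 (without SA 1) higher genes and 0 (without Ctrl 1, Ctrl 4, SA 2, SA 3 or SA 4) to 6 (without SA 1) lower genes, with 2 lower without Ctrl 2.

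Signs turned for genes with fold changes near 0 or set by 1 library. Cyp2a12 had 0.001 without the filter and 0.55 with FPKM, Cyp2j5 had 0.012 with FPKM and Cyp3a25 had -0.079 with FPKM. Larger moves without a change of sign with FPKM were -3.42 for Cyp3a59, 1.86 for Cyp1a2 and 1.44 for Cyp2f2, against -0.10, 0.42 and 0.28 from counts. When 1 library was left out, the log2 fold change ranged over -0.12 to 0.093 for Cyp2a12, -0.49 to 0.77 for Cyp2b10, -1.26 to 2.47 for Cyp2b9, -0.008 to 0.12 for Cyp2d10, -0.13 to 0.028 for Cyp2d22, -0.016 to 0.091 for Cyp2d26, -0.035 to 0.47 for Cyp2d40, -0.29 to 0.045 for Cyp2d9, -0.14 to 0.056 for Cyp2j5, -0.003 to 0.26 for Cyp2r1, -0.032 to 1.33 for Cyp2s1, -0.045 to 0.084 for Cyp3a25 and -0.34 to 0.068 for Cyp3a59. Without a change of sign it ranged over 0.93 to 1.45 for Cyp1a1, 0.24 to 0.77 for Cyp1a2, -0.88 to -0.47 for Cyp1b1, 0.68 to 1.52 for Cyp2a5, -0.28 to -0.032 for Cyp2e1, 0.15 to 0.36 for Cyp2f2, -0.29 to -0.024 for Cyp2j6, 0.75 to 1.18 for Cyp2j9, -0.56 to -0.089 for Cyp2j11, -0.31 to -0.016 for Cyp2u1, -0.57 to -0.20 for Cyp3a11 and 0.15 to 0.51 for Cyp3a13. Summed Cyp2b ranged over -1.06 to 2.01. The cause was not tested.

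The labels do not say that equal numbers pair the libraries, and the deviations of same-numbered libraries correlated at -0.02, -0.02, 0.22 and -0.22. These values cannot decide whether equal numbers share a batch, since no known pair was at hand for comparison. With the replicate block the log2 fold change was 1.14 for Cyp1a1, 0.93 for Cyp2a5, 0.85 for Cyp2j9 and 0.48 for Cyp2b9, none past the threshold. Depth limits Cyp2d12, Cyp2g1, Cyp2s1, Cyp1a1 and Cyp2b10, where single libraries held few counts, and counting limits cover counting error only.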

Other observations

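The deposited FPKM and count tables disagree for some of the 18 members that both hold. Cyp2a12 had FPKM values of 4.80, 4.71, 5.33 and 415 in the Ctrl libraries and 5.71, 7.93, 10.2 and 603 in the SA libraries, in the order 1 to 4, a range of 128-fold in FPKM and 1.5-fold in CPM. Ctrl 4 and SA 4 stand apart from the rest in FPKM and not in counts. The highest library exceeded the lowest 109-fold in FPKM and 2.3-fold in CPM for Cyp3a59, 34.8-fold in FPKM and 1.63-fold in CPM for Cyp2r1, 30.4-fold in FPKM and 1.82-fold in CPM for Cyp2f2 and 21.2-fold in FPKM and 2.57-fold in CPM for Cyp1a2. For Cyp2a5 the ranges were 7.55-fold in FPKM and 7.24-fold in CPM. Where the tables part, only the counts were used for the results on P450 genes.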
